A study of Homo sapiens with 4 samples.

Results

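The transcripts of 10 enzymes that modify and cross-link collagen were followed in 4 RNA-seq libraries: the lysyl oxidases LOX, LOXL1, LOXL2, LOXL3 and LOXL4, the lysyl hydroxylases PLOD1, PLOD2 and PLOD3, and the prolyl 4-hydroxylase subunits P4HA1 and P4HA2. They were chosen by symbol, and all 10 were among the 25283 genes of the table and among the 17317 genes tested. The choice was made with the difference between the groups already known, so that difference is given for them as a description. The cells, labelled as neurons, had been derived by way of neural progenitors and a maturation medium from the human embryonic stem cell line H1. In the first group (U1_OE, 2 libraries) they had received a lentiviral vector for overexpression of U1 snRNA for 36 hours. The second group (control, 2 libraries) is titled WT and labelled as wild type with an empty vector, although the treatment text of these samples names the overexpression vector. All libraries share 1 cell line and the labelled time of 36 hours, and the labels conflict on which vector the control cells received. Separate cultures within a group are not stated, so p-values rest on a spread that may be technical only. U1 snRNA, the RNA that pairs with the 5′ splice site, was itself not analysed here.

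Collagen chains are modified in the endoplasmic reticulum before they fold. Prolyl 4-hydroxylase, built of a catalytic alpha subunit (P4HA1, P4HA2 or P4HA3) and protein disulfide isomerase (P4HB), makes the hydroxyproline that holds the triple helix together, and lysyl hydroxylases make the hydroxylysine that carries sugars and strengthens cross-links. Both kinds of enzyme need iron, oxoglutarate and ascorbate. Lysyl oxidases act later, outside the cell: these copper enzymes oxidise lysine and hydroxylysine in collagen and elastin to aldehydes, which then react to form covalent cross-links. Fibroblasts and other mesenchymal cells are the usual source of both classes.

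Depth was 16713505 and 19057423 estimated counts in U1_OE libraries, against 17061796 and 17636307 in control libraries. The neuron label was not borne out by its markers. Of 12 neuronal markers 10 were in the table, and 1 of them, TUBB3, reached 10 CPM in every library; DCX stood at 0 and 0.157 CPM in U1_OE and at 0 and 0.111 CPM in control libraries. All 10 mesenchymal markers stood at 10 CPM or more throughout (counts made comparable by TMM scaling), with the type I collagen gene COL1A1 the highest. Their summed level was 75370 and 63900 CPM in U1_OE and 53490 and 72010 CPM in control libraries, so the groups overlapped, as did their median levels of 1233 and 663 CPM in U1_OE and 446 and 821 CPM in control libraries. The log2 fold change was positive for 8 of these 10 markers, and DESeq2 called 0 of them. Some markers of several cell types lay apart between the groups. TUBB3 had 264 and 338 CPM in U1_OE and 159 and 103.7 CPM in control libraries (DESeq2 adjusted p = 0.00134). Among the mesenchymal markers THY1 had 693 and 585 CPM in U1_OE and 315 and 450.0 CPM in control libraries, and PDGFRB had 219 and 183 CPM in U1_OE and 129 and 156 CPM in control libraries. Both U1_OE libraries also lay above both control libraries for the endothelial marker PECAM1, with 34.4 and 64.2 CPM in U1_OE and 22.9 and 29.3 CPM in control libraries, and for the epithelial marker KRT18, with 229 and 452 CPM in U1_OE and 185 and 90.2 CPM in control libraries. The same held for the neural progenitor marker NES, with 39.35 and 44.5 CPM in U1_OE and 24.3 and 30.0 CPM in control libraries. Of the 3 tested neural progenitor markers, 1 had a positive log2 fold change. Other markers lay apart in the opposite direction. The neural progenitor marker PAX6 had 5.60 and 12.3 CPM in U1_OE and 19.7 and 13.5 CPM in control libraries. The endothelial marker KDR, below 1 CPM throughout, had 0.308 and 0.314 CPM in U1_OE and 0.706 and 0.940 CPM in control libraries. The part of these markers in the differences given for the enzymes was not tested. In bulk RNA, more cells of a type and more RNA per cell cannot be told apart.

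Within the 10 enzymes, LOX differed most between the groups, the other lysyl oxidases were spread on both sides of 0, and the 5 hydroxylases all had somewhat higher mean levels in U1_OE libraries. The median log2 fold change (U1_OE over control) was 0.26 for the lysyl oxidases, with a range of -0.41 to 1.11, and 0.50 for the hydroxylases, with a range of 0.20 to 0.56. Over all tested genes it was -0.01, and over the 1616 genes with at least the mean count of the lowest enzyme, PLOD3, it was 0.09. Both U1_OE libraries lay above both control libraries for 7 of the 10 enzymes. The same held for 19.7% of all tested genes and for 32.9% of those 1616 genes, and nothing is read from the count, since the choice of genes used this contrast. In the quasi-likelihood test of edgeR, Benjamini-Hochberg adjusted over all genes, 0 of the 10 were under 0.05, as were 0% of all tested genes, and 4 of the 10 had an unadjusted p under 0.05, against 9.08% of all. limma-voom also called 0 of the 10. DESeq2 called 1, LOX, and 1.08% of 17440 genes (0.614% higher and 0.470% lower in U1_OE), or 3.65% of the 1616 abundant genes. The log2 fold change was positive for 8 of the 10 and for 49.3% of all tested genes.

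**Figure D1:**
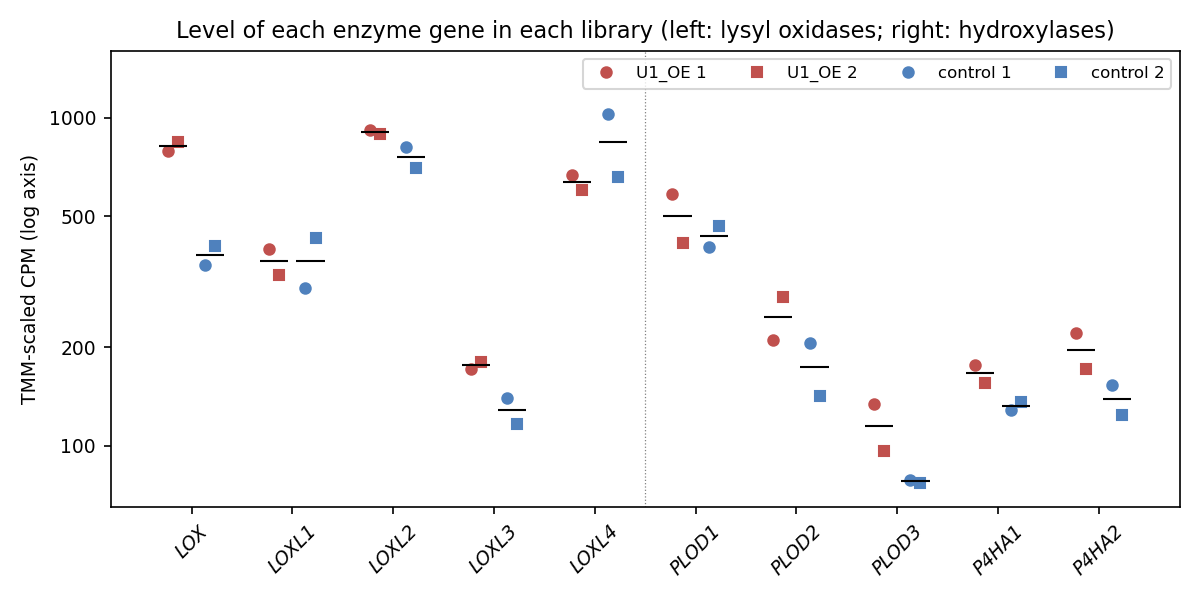
Level of each enzyme gene in TMM-scaled CPM on a log axis, in the 2 U1_OE libraries (red, left of each pair) and the 2 control libraries (blue, right); circles are replicate 1, squares replicate 2, and lines the group means. LOX at 794 and 846 CPM stood well above its control libraries at 355 and 406 CPM, whereas LOXL1, LOXL4 and PLOD1 had overlapping groups.

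LOX (chromosome 5, 122063195 to 122078360, minus strand; all gene positions are from GENCODE v29 on GRCh38) encodes the founding lysyl oxidase, secreted as a proenzyme and cut by BMP1. It had 794 and 846 CPM in U1_OE libraries and 355 and 406 CPM in control libraries. The libraries of each group lay close together and far from the other group. The edgeR log2 fold change was 1.11 ± 0.14 (SE), or 2.16-fold, and between 1.03 and 1.22 in each of the 16 alternative fits. DESeq2 no longer called LOX when control replicate 1 was left out (adjusted p = 0.0729), and called it when any of the other libraries was. LOX shares 138 exonic bases with SRFBP1 on the opposite strand, and SRFBP1 had 5.24 and 5.61 CPM in U1_OE and 5.53 and 5.25 CPM in control libraries.

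LOXL1 (chromosome 15, 73925989 to 73952137, plus strand), which cross-links elastin, had 398 and 332 CPM in U1_OE and 303 and 430.3 CPM in control libraries. Both U1_OE values fell between the control values, and the log2 fold change was -0.01 ± 0.22. Its sign was kept in 7 of the 16 alternative fits. Its antisense neighbour LOXL1-AS1, which shares 335 exonic bases with it, had 18.7 and 29.4 CPM in U1_OE and 20.0 and 24.2 CPM in control libraries.

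LOXL2, LOXL3 and LOXL4 are the members with scavenger receptor cysteine-rich domains. LOXL2 (chromosome 8, 23297189 to 23425328, minus strand), which acts on the type IV collagen of basement membranes, had 918 and 895 CPM in U1_OE and 812 and 703 CPM in control libraries, with a log2 fold change of 0.26 ± 0.14. Leaving out control replicate 1 gave 0.39 for LOXL2, and leaving out control replicate 2 gave 0.16. LOXL3 (chromosome 2, 74532414 to 74555690, minus strand) had 172 and 179.6 CPM in U1_OE and 140.1 and 117 CPM in control libraries, with a log2 fold change of 0.45 ± 0.15. In both genes the groups were apart by less than the gap seen for LOX. LOXL2 shares 120 exonic bases with ENTPD4 on its own strand, and LOXL3 shares 625 with HTRA2 and 216 with DOK1 on the opposite strand. Of these neighbours DOK1 had the levels nearest to the enzyme's, 62.2 and 75.4 CPM in U1_OE and 60.0 and 46.7 CPM in control libraries. LOXL4 (chromosome 10, 98247690 to 98268250, minus strand) went the other way in its mean, with 669 and 604 CPM in U1_OE and 1028 and 661 CPM in control libraries. That difference rested on control replicate 1: the log2 fold change was -0.41 ± 0.24 over all libraries and -0.03 once that library was left out. Leaving out control replicate 2 gave -0.69.

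The make-up of the lysyl oxidases differed between the groups. LOX supplied 26.9% and 29.6% of the summed lysyl oxidase counts in U1_OE libraries, against 13.45% and 17.5% in control libraries. LOXL4 supplied 22.7% and 21.1% in U1_OE and 39.0% and 28.5% in control libraries. Shares within a class depend on each other, so higher LOX counts alone lower the LOXL4 share and raise the ratio of LOX to LOXL4. In CPM, LOXL4 in control replicate 2 (661) lay between the U1_OE libraries (669 and 604). LOXL2 kept a near constant part, 31.1% and 31.3% in U1_OE and 30.8% and 30.4% in control libraries. The ratio of LOX to LOXL4 counts, which needs no scaling between libraries, was 1.19 and 1.40 in U1_OE and 0.345 and 0.614 in control libraries. The widest 95% Wilson interval of any such share reached 0.753 percentage points to either side, which covers counting error only. These shares are a description of the libraries, since they rest on the same contrast.

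**Figure D2:**
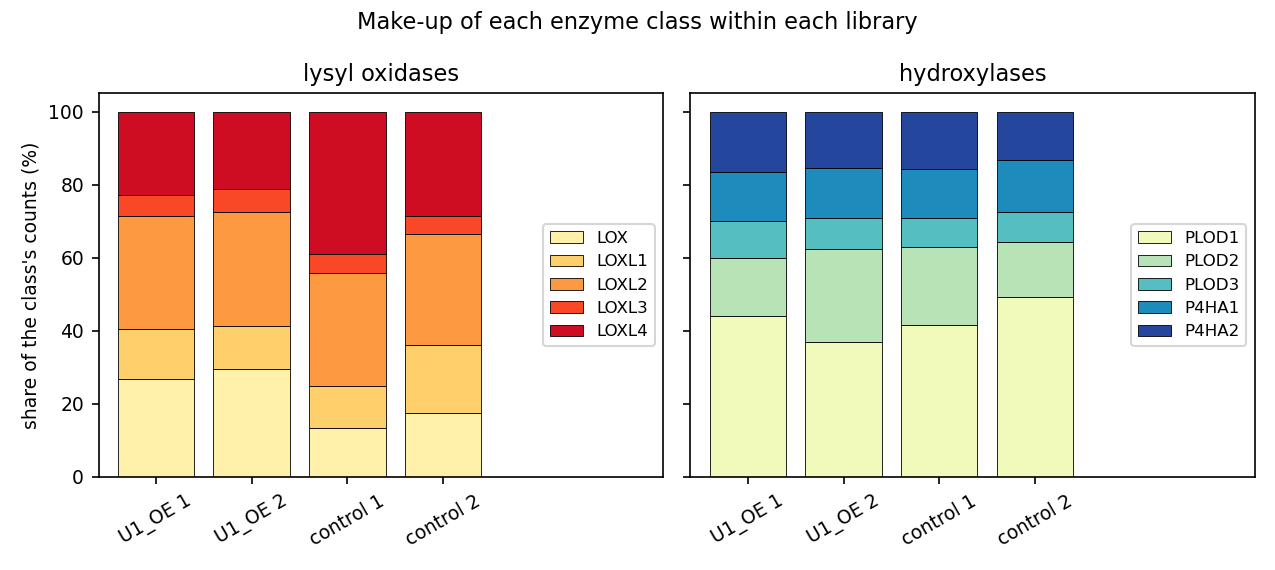
Share (%) of each gene in the summed counts of its class, in each library, U1_OE libraries left of control libraries. LOX took 26.9% and 29.6% of the lysyl oxidase counts in U1_OE and 13.45% and 17.5% in control libraries, and PLOD1 was the largest part of the hydroxylase counts in every library.

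Among the lysyl hydroxylases, PLOD1 (chromosome 1, 11934205 to 11975538, plus strand), which modifies lysines of the triple helix, had 586 and 416 CPM in U1_OE and 403 and 467 CPM in control libraries. These groups overlapped, and the log2 fold change of 0.20 ± 0.21 was -0.05 without U1_OE replicate 1 and 0.43 without U1_OE replicate 2. PLOD2 (chromosome 3, 146069440 to 146163653, minus strand), which modifies the telopeptide lysines that steer cross-linking towards hydroxylysine-derived bonds, had 210.4 and 284.5 CPM in U1_OE and 206 and 142 CPM in control libraries. Its lowest U1_OE library was barely above its highest control library. Leaving out control replicate 1 moved its log2 fold change of 0.51 ± 0.25 to 0.83, and leaving out control replicate 2 moved it to 0.26. PLOD3 (chromosome 7, 101205977 to 101218420, minus strand), which also transfers sugars to hydroxylysine, had 134 and 96.4 CPM in U1_OE and 78.9 and 77.0 CPM in control libraries. Its control libraries were nearly equal and its U1_OE libraries were not. The log2 fold change was 0.56 ± 0.19, and 0.32 without U1_OE replicate 1. PLOD3 shares 429 exonic bases with ZNHIT1 on the opposite strand, which had 316 and 294 CPM in U1_OE and 294 and 236 CPM in control libraries. The protocol names no strand-marking step, and without one the reads of such pairs cannot be told apart.

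Both prolyl hydroxylase subunits had higher mean levels in U1_OE libraries. P4HA1 (chromosome 10, 73007217 to 73096974, minus strand) had 177 and 156 CPM in U1_OE and 128 and 136 CPM in control libraries, with a log2 fold change of 0.33 ± 0.14. P4HA2 (chromosome 5, 132191838 to 132295315, minus strand) had 220.5 and 172 CPM in U1_OE and 153 and 124 CPM in control libraries, with 0.50 ± 0.19. Its log2 fold change was 0.32 without U1_OE replicate 1 and 0.68 without control replicate 1. P4HA2 shares 548 exonic bases with P4HA2-AS1, which had at most 2.36 CPM. In both subunits, the groups were apart and the libraries within a group differed by a good part of that distance. P4HA3, the third alpha subunit and not among the 10, had 84.9 and 22.0 CPM in U1_OE and 14.6 and 15.0 CPM in control libraries. DESeq2 called P4HA3 (adjusted p = 0.0454), and the size rested on U1_OE replicate 1: the DESeq2 log2 fold change was 1.86 over all libraries and 0.60 without that library. The call was lost without U1_OE replicate 1, control replicate 1 or control replicate 2 (adjusted p = 1 in each).

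**Figure D3:**
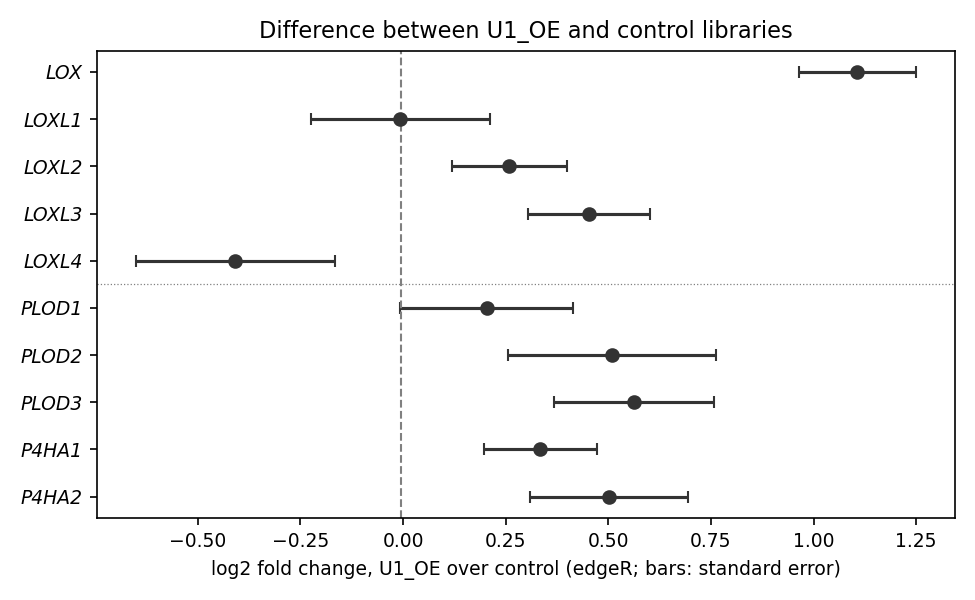
Log2 fold change of each enzyme gene, U1_OE over control, by edgeR (points) with its standard error (bars); the dashed line is the median of all 17317 tested genes. LOX at 1.11 lay furthest from that median of -0.01, the 5 hydroxylases lay between 0.20 and 0.56, and LOXL4 lay at -0.41.

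Set against each other, the classes had a ratio that overlapped between the groups. The lysyl oxidases summed to 2950 and 2857 CPM in U1_OE and 2638 and 2318 CPM in control libraries, and the hydroxylases to 1327 and 1124 CPM in U1_OE and 969 and 945 CPM in control libraries. Both sums were thus higher in both U1_OE libraries, but with LOX left out the lysyl oxidase sums of the groups overlapped. The summed lysyl oxidase counts were 2.22 and 2.54 times the summed hydroxylase counts in U1_OE libraries and 2.72 and 2.45 times in control libraries. The mean log2 ratio was 1.25 ± 0.14 in U1_OE and 1.37 ± 0.11 in control libraries (SD, n = 2), a difference of -0.12 with no test. Without LOX, the ratio was 1.62 and 1.79 in U1_OE and 2.36 and 2.02 in control libraries, a difference in log2 ratio of -0.36. The enzymes can also be set against their substrate. Per 1000 counts of COL1A1, COL1A2 and COL3A1 together, there were 11.4 and 13.9 LOX counts in U1_OE libraries and 6.98 and 5.98 in control libraries, so these groups did not overlap. The summed lysyl oxidases had 42.4 and 46.9 counts per 1000 in U1_OE libraries and 51.9 and 34.1 in control libraries. The summed hydroxylases had 19.1 and 18.45 counts per 1000 in U1_OE libraries and 19.05 and 13.9 in control libraries. Neither class sum on this measure separated the groups.

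**Figure D4:**
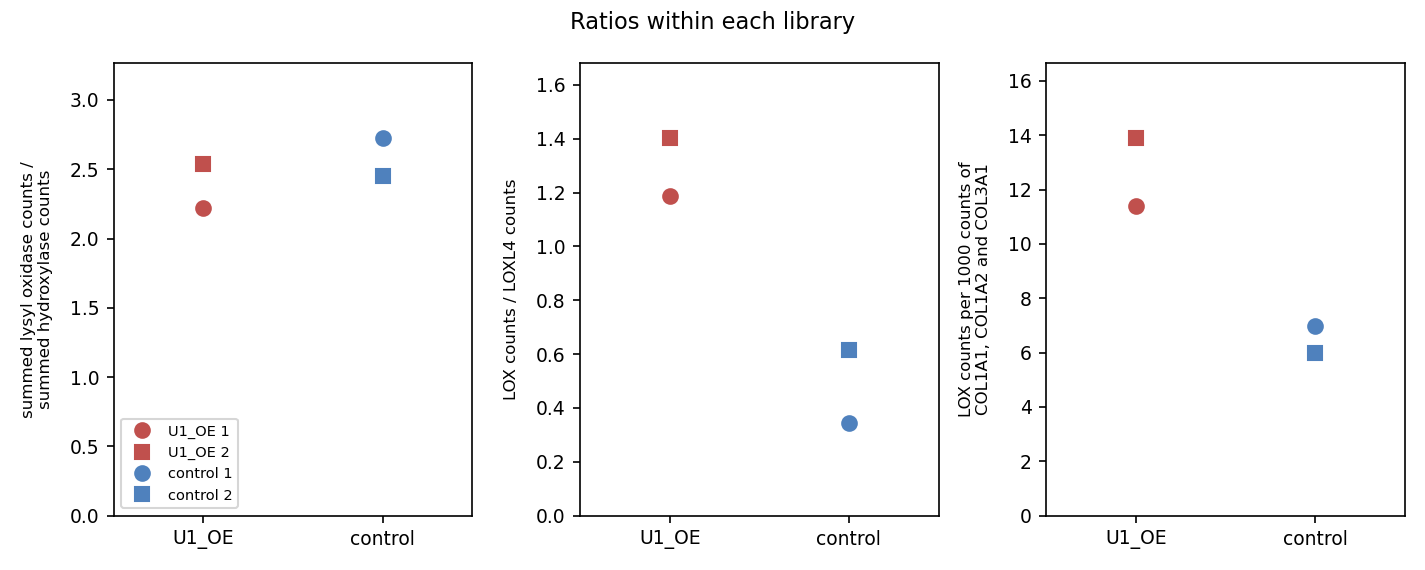
Ratios of counts within each library, U1_OE left and control right, circles for replicate 1 and squares for replicate 2: summed lysyl oxidases to summed hydroxylases, LOX to LOXL4, and LOX per 1000 fibrillar collagen counts. The first ratio overlapped between groups at 2.22 to 2.72, while LOX to LOXL4 was 1.19 and 1.40 in U1_OE and 0.345 and 0.614 in control libraries.

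To compare levels between genes, CPM were divided by the length of all annotated exons of the gene. On this scale LOXL4 was the highest of the 10 in every library, with a mean level of 203 ± 53.1 CPM per kilobase (SD over the 4 libraries), followed by LOXL2 with 146 ± 17.0 and, at similar levels, LOX with 108 ± 46.1, LOXL1 with 101 ± 16.1 and PLOD1 with 87.9 ± 15.7. The ranges of LOX, LOXL1 and PLOD1 overlapped, and that of LOX reached into that of LOXL2. LOX ranked 3 of the 10 in both U1_OE libraries and 5 in both control libraries, while LOXL1 ranked 5 and 4 in U1_OE and 3 in both control libraries. P4HA1 came next with 48.2 ± 7.07, apart from its neighbours in every library. LOXL3 (34.9 ± 6.69), PLOD2 (27.6 ± 7.64), P4HA2 (19.7 ± 4.76) and PLOD3 (17.0 ± 4.65) followed in the same order in all 4 libraries, although the ranges of neighbours overlapped. Genes with many annotated isoforms have long summed exons, 8.502 kilobases for P4HA2 against 3.093 for P4HA1, which lowers their level on this scale.

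LOX, PLOD2, P4HA1 and P4HA2 are known targets of hypoxia-inducible factors, whose binding element contains ACGTG. The 250 bases before the RefSeq start were available for 9 of the 10 genes (GRCh38.p14) and were searched on both strands, as ACGTG or its reverse complement CACGT. The letters were present in 3 of the 9, LOX, PLOD2 and P4HA1, and in 18.6% of 27305 promoters of the same length. LOX held 4 matches, as did 0.71% of those promoters (4 or more). No match of ACGTG lay on CACGTG, where the 2 strands would overlap, in these genes. The other common form of the element, GCGTG or its reverse complement CACGC, was present in 2 of the 9, PLOD1 with 2 copies and PLOD2 with 1, and in 31.9% of the promoters. Either form was present in 4 of the 9 and in 43.1% of the promoters. The 3 windows are shown for their ACGTG matches, which are in capitals, 5′ to 3′ on the strand of the gene, from chr5:122078260-122078509, chr3:146161185-146161434 and chr10:73096867-73097116, all minus strand.
LOX: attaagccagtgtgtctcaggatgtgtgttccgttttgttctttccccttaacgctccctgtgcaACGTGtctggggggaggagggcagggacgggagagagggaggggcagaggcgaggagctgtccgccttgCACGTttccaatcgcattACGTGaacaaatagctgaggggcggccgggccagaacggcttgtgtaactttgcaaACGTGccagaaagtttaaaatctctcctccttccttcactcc
PLOD2: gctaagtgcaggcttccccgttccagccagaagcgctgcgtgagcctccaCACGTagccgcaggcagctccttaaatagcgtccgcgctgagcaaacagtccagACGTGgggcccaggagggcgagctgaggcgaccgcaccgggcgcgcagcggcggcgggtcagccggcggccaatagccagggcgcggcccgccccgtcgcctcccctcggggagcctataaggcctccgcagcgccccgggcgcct
P4HA1: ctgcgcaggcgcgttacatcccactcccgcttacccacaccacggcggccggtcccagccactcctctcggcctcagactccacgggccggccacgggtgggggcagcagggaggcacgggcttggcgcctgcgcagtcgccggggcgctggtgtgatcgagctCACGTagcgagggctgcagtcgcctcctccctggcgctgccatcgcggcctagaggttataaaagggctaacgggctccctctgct

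The matches of LOX began 185, 116, 98 and 42 bases before the start, those of PLOD2 at 200 and 146 bases, and that of P4HA1 at 86 bases. P4HA2 held none in its window, chr5:132227092-132227341. Some windows lay inside the gene spans given above, that of P4HA2 far inside and that of PLOD2 among the others. The RefSeq starts used there differed from the outermost GENCODE starts, and starts further upstream were not searched. Whether the matches bear on the differences between the groups was not tested. The match describes the letters and not binding.

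The other genes of the pathway were taken from lists of 65 symbols, of which 63 were in the table and 61 tested. edgeR's quasi-likelihood test and limma-voom called 0 of the 61 over all genes (lowest edgeR adjusted p = 0.459), and DESeq2 called 3, all higher in U1_OE: P4HA3, POSTN and LDHA. Over all genes DESeq2 called 1.08%, with 0.614% higher in U1_OE. At an unadjusted edgeR p under 0.05 there were 15, and all 15 were higher in U1_OE, against 9.08% of all tested genes in either direction and 4.36% higher in U1_OE. That share was not computed for abundant genes, and many listed genes are abundant. Both U1_OE libraries lay above both control libraries for 32.9% of the 1616 abundant genes, against 19.7% of all tested genes. Nothing is read from this count or from the counts of single lists below.

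Partners of the hydroxylases and collagen chaperones had a median log2 fold change of 0.21 over 13 tested genes, 11 of them positive. P4HB, the common subunit of prolyl 4-hydroxylase, had 2384 and 2239 CPM in U1_OE and 2064 and 2232 CPM in control libraries. The collagen chaperone gene SERPINH1 had 3049 and 1763 CPM in U1_OE and 1751 and 2006 CPM in control libraries, and the prolyl isomerase gene PPIB had 2649 and 1725 CPM in U1_OE and 1442 and 1411 CPM in control libraries. U1_OE replicate 1 was the highest library for all 3 genes, and U1_OE replicate 2 was close to the control libraries for P4HB and SERPINH1. The substrates, 9 tested fibrillar collagens and elastin, had a median of 0.13 with 5 positive and 4 negative. COL1A1 had 41460 and 39670 CPM in U1_OE and 29370 and 38310 CPM in control libraries, whereas COL1A2, at 19120 and 14740 CPM in U1_OE and 14510 and 20200 CPM in control libraries, and COL3A1, at 9025 and 6511 CPM in U1_OE and 6968 and 9411 CPM in control libraries, overlapped. Their log2 fold changes were 0.26, -0.04 and -0.08, in the order given, against 1.11 for LOX.

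The proteases that cut procollagen and pro-lysyl oxidase, with their enhancers, had a median log2 fold change of -0.02 over 8 genes. BMP1, which activates LOX, was nearly level at 335 and 349.7 CPM in U1_OE and 321.5 and 369 CPM in control libraries. Of 5 extracellular partners of lysyl oxidases, POSTN, the matrix protein periostin that aids BMP1 in cutting LOX, had 273 and 229.7 CPM in U1_OE and 72.4 and 142 CPM in control libraries. POSTN rose by DESeq2 (log2 fold change 1.25, adjusted p = 0.00938), a call lost without U1_OE replicate 1, U1_OE replicate 2 or control replicate 1. FN1, fibronectin, on which LOX and BMP1 gather, had 13660 and 14960 CPM in U1_OE and 19480 and 12710 CPM in control libraries, with overlapping groups. Copper delivery, which loads lysyl oxidases with their metal, had a median of 0.12 over 6 genes. Its chaperone ATOX1, which hands copper to the Golgi pump, had 352 and 283 CPM in U1_OE and 319 and 233 CPM in control libraries. Of 4 other matrix cross-linking enzymes, TGM2, a transglutaminase, had 163.5 and 377 CPM in U1_OE and 183 and 119.8 CPM in control libraries, and PXDN, which makes sulfilimine bonds in type IV collagen, had 428 and 361 CPM in U1_OE and 309 and 400.4 CPM in control libraries. Neither separated the groups.

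Targets of the hypoxia-inducible factors had a median log2 fold change of 0.18 over 8 tested genes, 5 of them positive. LDHA, lactate dehydrogenase A, had 1125 and 1854 CPM in U1_OE and 732 and 626 CPM in control libraries, and rose by DESeq2 (log2 fold change 1.15, adjusted p = 0.00236), a call lost without control replicate 1 (adjusted p = 0.0616) or control replicate 2 (adjusted p = 0.293). The glycolytic gene PGK1 had 186 and 219.7 CPM in U1_OE and 172 and 151 CPM in control libraries, and ADM, the peptide hormone adrenomedullin, had lower levels, 109.9 and 208 CPM in U1_OE and 312 and 214 CPM in control libraries. Genes of TGF-beta signalling, a known inducer of LOX, had the highest median of any of these lists, 0.79 over 8 genes with 7 positive, 5 under an unadjusted edgeR p of 0.05 and 0 called by edgeR, DESeq2 or limma-voom. Over all tested genes, 49.3% were positive and 9.08% were under that unadjusted p, while 4.36% were under it and higher in U1_OE. TGFBI, a secreted matrix protein, had 1639 and 926 CPM in U1_OE and 789 and 689 CPM in control libraries. CCN2, a matricellular protein gene that is also a target, had overlapping groups, with 1014 and 1107 CPM in U1_OE and 1202 and 511 CPM in control libraries.

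**Figure D5:**
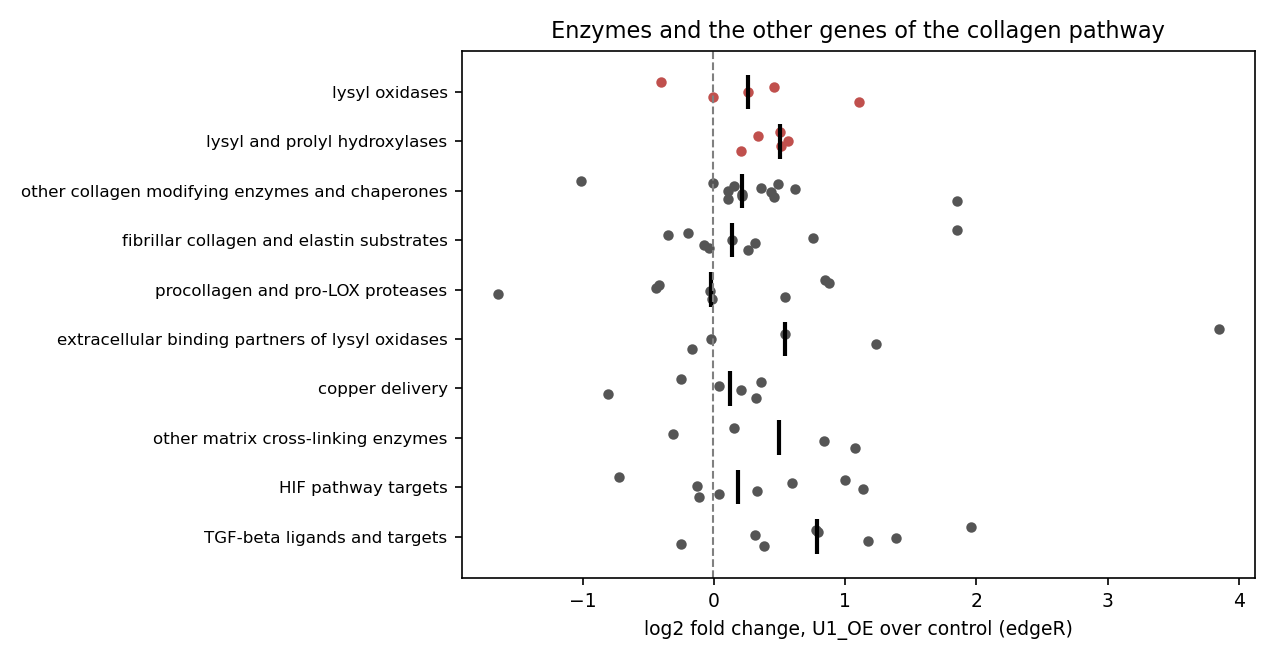
Log2 fold change, U1_OE over control, by edgeR of each tested gene (points) in the enzyme classes (red) and the other lists (grey), with list medians as bars and the median of all tested genes as a dashed line. The hydroxylases lay between 0.20 and 0.56, the lysyl oxidases between -0.41 and 1.11, and the list medians between -0.02 and 0.79.

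Among the 58 listed genes outside the 10 enzymes whose counts averaged 50 or more, the profiles over the 4 libraries most like that of LOX were those of NDRG1, SMAD7 and LDHA. Likeness was the root mean square difference of log2(CPM + 0.5) after each profile was centred on its mean, 0.19 for NDRG1, 0.27 for SMAD7 and 0.27 for LDHA. The LOX profile was mostly the difference between the groups, so this measure mainly picks genes with a similar group difference. Whether these genes share a regulator with LOX was not tested. NDRG1, like LDHA from the list of hypoxia-inducible factor targets, had 16.0 and 22.7 CPM in U1_OE and 10.0 and 9.40 CPM in control libraries. SMAD7, an inhibitor of TGF-beta signalling and from that list, had 25.4 and 22.2 CPM in U1_OE and 15.4 and 12.4 CPM in control libraries. Of the 12271 genes with that mean count, 34 were at least as close to LOX as NDRG1 was, NDRG1 included. Counted in the same way, 145 were at least as close as SMAD7 and 147 as LDHA.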

How the data were processed

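Estimated counts per gene in 4 libraries were analysed as the authors deposited them, not normalised and mostly not whole numbers. The origin of the fractions is not stated. Per the submitters' processing notes, Trim Galore, STAR, featureCounts and DESeq2 were used with the hg38 build, without roles or versions. Groups and replicate numbers come from the sample titles.

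Counts were rounded and tested over the whole table with edgeR 4.0.16 in R 4.3.3 (filterByExpr with a minimum count of 10, TMM scaling, quasi-likelihood test, Benjamini-Hochberg adjustment, threshold 0.05). The rounded and deposited values differ little at the 1341 to 17465 counts of the 10 enzymes, where the counting error was at most 2.73%. Standard errors were worked back from the fold change and F statistic. DESeq2 1.42.0 was run on all rows with its own filter, and limma 3.58.1 for voom. The procedures were run on simulated counts as a check of the code, where DESeq2 followed the edgeR filter. No error rate for these data is taken from that run. Exon lengths and positions come from GENCODE release 29, to which all 75 listed genes matched, and promoter sequences from RefSeq.

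The enzymes, the gene lists and the tests were chosen with earlier results of these data known. Besides the 10 enzymes, genes are named if called by edgeR or DESeq2, if among the 3 of highest level in their list, or if closest to LOX in profile. Not every gene this would name is reported here. Those under other observations were chosen after their values were seen. Alternatives were scaling by RLE or by library size only, filters of none or of a mean count of 50, DESeq2, limma-voom, a replicate block and each library left out. DESeq2 with a library left out or with a block, and the ratio without LOX, were added after seeing the data.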

Additional observations from a re-analysis of the deposited data

How the results depend on the processing

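No enzyme was called by edgeR or limma-voom under any alternative run. Over all genes the count was 0 with edgeR and limma-voom in each, 189 with DESeq2, and 55 to 322 with DESeq2 and a library left out (147 and 322 without U1_OE replicate 1 and 2, 55 and 62 without control replicate 1 and 2); among the 10 enzymes DESeq2 called 1 (0 to 1 with a library left out), and among the other listed genes 3 (1 to 12). The median log2 fold change of the lysyl oxidases ran from 0.25 to 0.39 and that of the hydroxylases from 0.32 to 0.60 with a library left out. The log2 ratio of the classes, -0.12, ran from -0.22 to -0.02 with a library left out, and was -0.26 without LOXL2 and PLOD1, the members with the most counts, -0.36 without LOX and -0.18 with counts per kilobase. The cause of these shifts was not tested, apart from the fewer libraries or genes used. The same-numbered libraries of the groups did not deviate together (correlation -0.08 over genes). With the replicate block edgeR called 0 genes, the medians were 0.26 and 0.50 and the ratio -0.12, and DESeq2 called 80 genes, 1 enzyme and 2 other listed genes. Of the 10 enzymes 8 kept the sign of their fold change in all 16 alternative fits; the exceptions were LOXL1 (kept in 7) and PLOD1 (kept in 14). The number of libraries limits precision more than depth does here.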

Other observations

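The matrix genes FMOD, ELN and FBLN5 and the hydroxylase subunit gene P4HA3 stood high in U1_OE replicate 1 alone. FMOD, the proteoglycan fibromodulin that binds LOX, had 62.3 and 3.04 CPM in U1_OE and 1.12 and 3.37 CPM in control libraries. ELN, elastin, had 47.3 and 5.19 CPM in U1_OE and 9.24 and 5.31 CPM in control libraries. FBLN5, which tethers LOXL1 to elastic fibres, had 278.5 and 91.7 CPM in U1_OE and 111.5 and 143 CPM in control libraries, and P4HA3 had 84.9 and 22.0 CPM in U1_OE and 14.6 and 15.0 CPM in control libraries. LOX itself did not follow this pattern, with 794 and 846 CPM in the U1_OE libraries. DCN, a mesenchymal marker, was high both in U1_OE replicate 1 and in control replicate 2, with 1137 and 233 CPM in U1_OE and 308 and 704 CPM in control libraries, and its part in these values was not tested.

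Another set stood highest in U1_OE replicate 2 and lowest in control replicate 2. TAGLN, a contractile protein gene, had 197 and 401 CPM in U1_OE and 113.5 and 40.4 CPM in control libraries, and TGM2 had 163.5 and 377 CPM in U1_OE and 183 and 119.8 CPM in control libraries. Among the 10 enzymes PLOD2 and LOXL3 shared this order, with 210.4 and 284.5 CPM of PLOD2 in U1_OE and 206 and 142 CPM in control libraries, and 172 and 179.6 CPM of LOXL3 in U1_OE and 140.1 and 117 CPM in control libraries. These genes were picked after their values were seen, and no test was made of them as sets.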
